A study of Rattus norvegicus with 18 samples.

Results

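Transcript levels of 8 genes were followed across 9 rat bone cell colonies: the scavenging chemokine receptor Ackr4, the CC chemokines Ccl21, Ccl2 and Ccl7, and the CXC chemokines Cxcl1, Cxcl3, Cxcl10 and Cxcl12. Members were all probe sets, on either of the arrays used, that the platform annotation gives to exactly 1 of these 8 symbols. They numbered 14 probe sets of 20359 single-symbol probe sets, and 8 genes of 13811. Chip A (RAE230A) held 10 of them and chip B (RAE230B) held 4. Because the genes had been picked from levels in these same colonies, their values are given as a description and were not tested.

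Each colony grew from 1 fetal rat calvaria cell, a cell of the developing skull that can form bone. Flow cytometry had placed cells one by one, and culture lasted 4 weeks at 37 C and 5% CO2, per the labels. The medium of all colonies was α-MEM with fetal bovine serum, ascorbic acid, BGP and Dex. RNA came from 100 to 300 cells of a colony and was labelled by a small-sample protocol for Affymetrix arrays. The submitters typed 3 colonies as having osteocalcin alone ("osteocalcin" below), 3 as having osteocalcin and adipsin ("both") and 3 as having neither marker ("neither"), and numbered them I, II and III within each type. Osteocalcin is a protein of bone matrix and adipsin a protease secreted by fat cells. Strain, sex, exact fetal age and the number of cell preparations are not given in the labels, and no treatment or genotype separates the types. The colonies were bulk samples, so fewer cells of a kind and less RNA per cell cannot be told apart.

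Chemokines are small secreted proteins that draw leukocytes and other cells along a gradient by binding receptors coupled to G proteins. The CC and CXC families are named for the spacing of their first cysteines. Atypical receptors such as Ackr4 do not couple to G proteins but take chemokines up for degradation, and so shape the gradient that other cells read. In bone, stromal and osteoblast-lineage cells make Cxcl12, which holds blood stem cells in the marrow, and Ccl2, which draws monocytes, the precursors of osteoclasts.

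Values are MAS5 signals, the linear intensity that Affymetrix software gives for a probe set, and the number of arrays limits their precision. The deposited 2%-trimmed mean was 1500 on all arrays but 1: for osteocalcin I it was 64.4 on chip A. That array was also hybridized on an earlier day than the other chip A arrays, per the array records. Rescaling brought every array to 1500, and the chip A values of osteocalcin I below rest on the largest such step. After rescaling, chip A array medians were 670, 795 and 759 in osteocalcin I, II and III and 701, 734 and 719 in both colonies. In neither colonies they were higher, at 896, 817 and 987. Differences of dim chip A probe sets from neither colonies, and whether types overlapped, were not corrected for these medians. Over 100 probe sets that both chips carry, 8 of 9 chip A arrays were closest to chip B of their own colony. Osteocalcin III was the exception: its chip A array correlated with chip B of both III at r = 0.551 and with its own at r = 0.403. Log2 levels below are log2(signal + pseudocount), with a pseudocount of 238.7 on chip A and 336.2 on chip B, and differences on that scale understate changes of dim probe sets. Brightness is given as a percentile of the probe sets on the same array, and no probe set is set against another in level.

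The type labels and cell markers were checked on the same arrays. Of 7 osteoblast markers on the arrays, 2 to 3 were above the array median in any colony: Col1a1 and Spp1 lay at or above the 98.4 percentile throughout and Dmp1 between the 31.6 and 84.9 percentile, while Alpl (4.72 to 25.5), Ibsp (7.42 to 46) and Phex (0.0251 to 25.8) were dim. The transcript of osteocalcin, Bglap, had signals of 27.1 to 55.9 in osteocalcin, 20.9 to 44.9 in both and 43.5 to 299 in neither colonies. Its highest value was in neither III, of a type labelled as lacking it, while neither I and II were at 43.5 and 59.5. The transcript of adipsin, Cfd, was 136 to 246 in osteocalcin, 251 to 522 in both and 113 to 308 in neither colonies, and overlapped between the both and neither types. Both transcripts lay below the array median in every colony, Bglap at the 1.29 to 22.3 percentile and Cfd at the 9.89 to 40.7 percentile. Values this dim do not decide whether the labels hold, and the types are used here as labelled. Among leukocyte markers the pan-leukocyte antigen Ptprc lay at or below the 47.2 percentile, but Fcer1g lay between the 52.1 and 86.1 percentile, and 3 to 7 of 13 were above the array median. Among blood endothelial markers Pecam1 lay at or below the 22 percentile, but Tek (55 to 85.2) and Egfl7 (61.6 to 91.8) did not, and 3 to 5 of 8 were above the array median. Summed signal of the 13 macrophage and leukocyte markers ran from 7405 to 13417 in osteocalcin, 5454 to 10550 in both and 10073 to 13871 in neither colonies. The 5 T cell markers summed to 2189 to 4304, 2429 to 3932 and 2527 to 6863 in the same order, with 1 or 2 above the array median.

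Of the 14 probe sets, 8 passed the filter on dim probe sets (signal above the array median on at least 3 of 9 arrays), 1 for each gene, and 6 did not: 4 of 5 for Cxcl3 and 2 of 3 for Cxcl12. A gene that was high in 1 type alone could pass through that type, so counts over these 8 are descriptions. Limma, fitted to all 19312 probe sets that passed, called 0 of them (0%) at an adjusted p under 0.05 in each of the 3 comparisons; 654 had an unadjusted p under 0.05 for both against osteocalcin, 1448 for osteocalcin against neither and 1883 for both against neither. Thus 0 of the 8 members were called. With array weights it called 87, 0 and 10, among them Ackr4 and Ccl21 for both against osteocalcin and Ackr4 for both against neither. Ackr4 was called in 4 of 20 alternatives for both against osteocalcin and in 3 of 20 for both against neither, and Ccl21 in 1 of 20 for the former; since the rule used these contrasts, the calls support nothing.

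The 2 types did not overlap for 3 of the 8 genes between both and osteocalcin colonies, where 10.1% of all probe sets tested did not overlap. Ackr4 and Cxcl3 were higher in both colonies (background 4.6% in that direction) and Ccl21 lower (5.49%). Between osteocalcin and neither colonies 2 of 8 did not overlap (background 12.2%), Ccl21 being higher (6.34%) and Cxcl3 lower (5.87%) in osteocalcin colonies. Between both and neither colonies 1 of 8 did not overlap (background 14.6%), namely Ackr4, which was higher in both colonies (6.34%), and 0 were lower (8.31%). The rule had used these contrasts, so nothing is read from the counts. The median difference over the 8 was +0.38, -0.18 and -0.3 log2 units in these comparisons, against -0.0143, 0.0272 and 0.0116 over all probe sets tested.

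**Figure D1:**
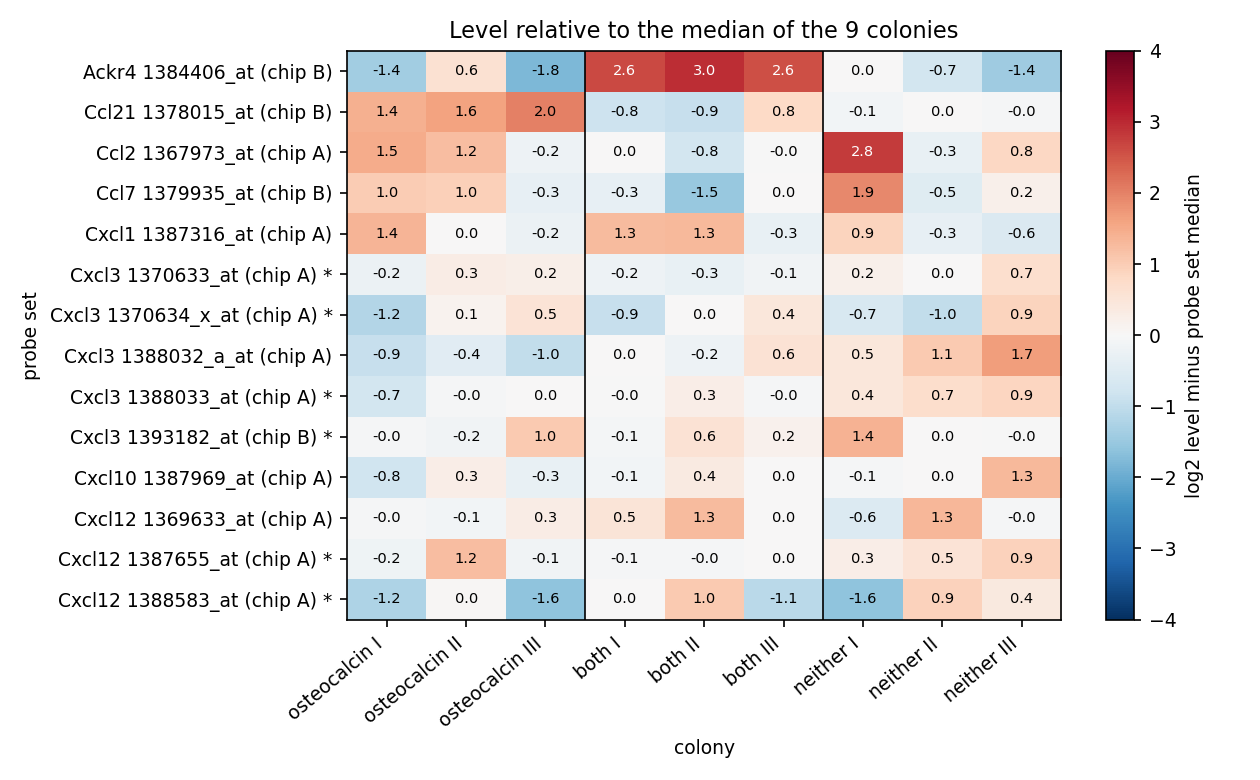
Log2 level of each of the 14 probe sets (rows) in each of the 9 colonies (columns), as the difference from that probe set's median over the colonies; red is above the median and blue below, and an asterisk marks probe sets that did not pass the filter. Ackr4 is highest in the 3 both colonies, Ccl21 in the 3 osteocalcin colonies, and the rows of Ccl2 and Ccl7 follow each other across columns.

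Promoter sequences show what each gene carries just before its start, and 4 are printed: that of Ackr4, the gene with the widest difference, and those of Ccl7, Cxcl1 and Cxcl10, the 3 members in which searched motifs were found. They are the 250 bases before the annotated start, from RefSeq's GRCr8 table, which matched 6 of the 8 genes; each was read 5′ to 3′ on the gene's strand, and capitals mark motif matches.
Ackr4, chr8:113599763-113600012, minus strand: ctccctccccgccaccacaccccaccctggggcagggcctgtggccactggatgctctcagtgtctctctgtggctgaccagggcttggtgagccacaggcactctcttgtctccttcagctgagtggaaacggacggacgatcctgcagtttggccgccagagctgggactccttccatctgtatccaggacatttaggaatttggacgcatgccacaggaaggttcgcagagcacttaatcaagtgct
Ccl7, chr10:67513845-67514094, plus strand: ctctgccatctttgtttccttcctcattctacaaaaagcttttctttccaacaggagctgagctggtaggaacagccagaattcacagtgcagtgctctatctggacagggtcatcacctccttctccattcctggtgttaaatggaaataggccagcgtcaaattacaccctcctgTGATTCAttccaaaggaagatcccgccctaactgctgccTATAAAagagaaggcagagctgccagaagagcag
Cxcl1, chr14:17479322-17479571, minus strand: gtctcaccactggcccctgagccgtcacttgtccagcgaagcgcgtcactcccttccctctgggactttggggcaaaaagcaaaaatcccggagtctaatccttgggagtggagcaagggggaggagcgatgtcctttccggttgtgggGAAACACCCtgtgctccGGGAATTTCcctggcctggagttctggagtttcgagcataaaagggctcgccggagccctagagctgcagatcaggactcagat
Cxcl10, chr14:15988816-15989065, plus strand: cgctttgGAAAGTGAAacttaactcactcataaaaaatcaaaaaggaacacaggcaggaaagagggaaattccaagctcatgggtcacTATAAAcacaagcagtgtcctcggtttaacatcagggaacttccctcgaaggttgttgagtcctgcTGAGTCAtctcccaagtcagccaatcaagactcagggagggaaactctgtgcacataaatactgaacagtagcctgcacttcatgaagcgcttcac
Windows of 300 bases, 250 before and 50 after the start, were searched on both strands for 4 motifs, and the share of 33469 rat promoters of that length holding each was counted. The NF-kB site was searched as GGGNNTTTC, which 4.53% held, and the interferon-stimulated response element as GAAANNGAA, which 9.71% held. The AP-1 site was searched as TGANTCA, which 7.33% held, and the TATA box as TATAAA, which 14.2% held. Ccl7 held an AP-1 match, TGATTCA, beginning at -73 from the start and a TATA match at -34. Cxcl1 held NF-kB matches at -101 (GAAACACCC, the motif on the opposite strand) and -84 (GGGAATTTC). Cxcl10 held an interferon element, GAAAGTGAA, at -243, a TATA match at -162 and an AP-1 match, TGAGTCA, at -96. The printed Cxcl10 sequence also holds gggaaattcc and gggaacttcc, which resemble the NF-kB letters but cannot match GGGNNTTTC. The letters searched were not in the windows of Ackr4, Ccl21 or Cxcl12. These are matches of letters and say nothing of binding. Other spellings of the motifs were not searched, so a motif not listed for a gene is not shown to be absent. No matches overlapped one another.

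Ackr4 encodes the receptor that takes up the CC chemokines Ccl19, Ccl21 and Ccl25. Its signal was 10639, 13451 and 10260 in both I, II and III. In osteocalcin I, II and III it was 333, 2371 and 176, and in neither I, II and III it was 1440, 737 and 327. The 3 both colonies were all above the other 6, at the 97.8 to 98.5 percentile of their arrays, and osteocalcin and neither colonies overlapped. The log2 level was 13.51 ± 0.206 in both, 9.93 ± 1.29 in osteocalcin and 10.08 ± 0.71 in neither colonies (SD, n = 3 each). Both colonies exceeded osteocalcin colonies by 3.59 log2 units (limma SE 0.576), or 12-fold, and neither colonies by 3.44, or 10.8-fold. Osteocalcin minus neither was -0.15, smaller than either SD.

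Few transcripts varied as widely among the colonies. The SD of Ackr4 over 9 colonies was 1.91 log2 units, at the 99.9 percentile of kept chip B probe sets, whose median was 0.707. Differences between types made up 84.8% of its variance, against a median of 25.1%. The highest colony, both II, had 76.5 times the signal of the lowest, osteocalcin III. Within the osteocalcin type colony II stood apart, at the 77.5 percentile of its array, while I and III were at the 25 and 9.93 percentile.

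Chip B was run on 2 fluidics stations. All both colonies ran on station 1 with neither I, and all osteocalcin colonies on station 2 with neither II and III, the osteocalcin arrays also at an earlier recorded time. On chip B the comparison of both with osteocalcin colonies therefore cannot be told apart from station. No comparison of osteocalcin colonies with another type on chip B can be told apart from recorded time, also within station 2. Within station 1 the 3 both colonies exceeded neither I by 2.72 log2 units in Ackr4, and within station 2 the 3 osteocalcin colonies exceeded neither II and III by 0.21. With station as a block, a term set on chip B by neither colonies, the both minus osteocalcin value was 2.51. It was 3.31 without osteocalcin I, 3.12 without osteocalcin III and 4.32 without osteocalcin II, a setting in which Ackr4 was called. Osteocalcin minus neither ran from -0.886 without osteocalcin II to 0.315 without osteocalcin III. Chip A also ran on 2 stations: all osteocalcin colonies with both I and II on station 1, and all neither colonies with both III on station 2. On chip A every comparison of osteocalcin with neither colonies below therefore cannot be told apart from station.

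Ccl21, a ligand of Ackr4 and of the lymph-node homing receptor Ccr7, was highest in another type. Its signal was 2004, 2341 and 3179 in osteocalcin I, II and III, and 473, 545 and 512 in neither I, II and III. In both I, II and III it was 161, 130 and 1192. The 3 osteocalcin colonies were above all others, the neither colonies lay close together, and both III stood above the neither colonies while both I and II stood below them. The log2 level was 11.45 ± 0.299 in osteocalcin, 9.72 ± 0.0617 in neither and 9.47 ± 0.964 in both colonies (SD, n = 3 each). Both minus osteocalcin was -1.99 (limma SE 0.574) and osteocalcin minus neither 1.73, while both and neither colonies overlapped at a difference of -0.26. Within station 2 osteocalcin colonies exceeded neither II and III by 1.7, a difference that cannot be told apart from their earlier recorded time. The both minus osteocalcin value ran from -3.08 with no pseudocount to -1.55 with it doubled, and both minus neither from -0.814 without both III to 0.044 without both II. Type made up 77.4% of the variance of Ccl21, whose SD over the colonies was 1.06.

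**Figure D2:**
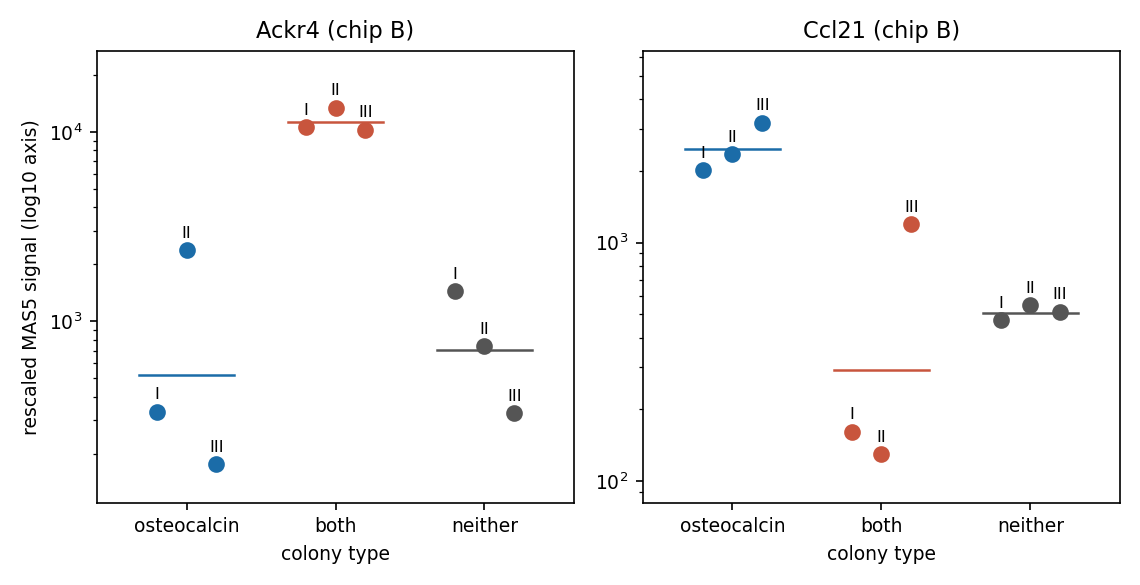
Rescaled MAS5 signal (vertical log10 axis) of Ackr4 and Ccl21 on chip B in every colony, by type; each point is 1 colony with its number, and the line is the geometric mean of 3 colonies. Ackr4 is at 10260 to 13451 in both colonies and at most 2371 elsewhere, and Ccl21 is at 2004 to 3179 in osteocalcin colonies and at most 1192 elsewhere.

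Ackr4 and Ccl21 were not opposite across all colonies. Both I and II combined high Ackr4 with the 2 lowest Ccl21 values, but both III had high Ackr4 with the highest Ccl21 outside the osteocalcin type, and osteocalcin II had the highest Ackr4 outside the both type together with high Ccl21. Over 9 colonies, which share chip and arrays, Pearson's r was -0.544 and Spearman's rho -0.617. Without both I and II, the 2 colonies farthest from the Ackr4 median, r was -0.089. That step took out 2 colonies with high Ackr4 and low Ccl21, so r rested largely on them together. Leaving out each colony in turn gave r from -0.67 without both III to -0.399 without both II.

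Among the Ackr4 ligands named above, Ccl19 was the other with a probe set and was named for that role. Further chemokines were not considered as Ackr4 ligands here. Its signal was 784, 899 and 6968 in osteocalcin I, II and III, 3627, 1063 and 6767 in both and 1063, 4636 and 485 in neither colonies. Each type held at least 1 bright colony, and all 3 types overlapped. Ccl25 and the receptor Ccr7 were not among the probe sets with 1 symbol and were not analysed here. Of the cell types in which Ccl21 is well known, lymphatic endothelium gave a summed signal of its 4 markers of 1917 to 7643 in osteocalcin, 3543 to 9326 in both and 4707 to 9705 in neither colonies. In the colony with the highest sum of each type, 4201, 6499 and 8055 of it came from Pdpn, in the same order. Flt4, another of these markers, was at most 471. Lyve1 was 904, 756 and 37.5 in osteocalcin I, II and III, 679, 1847 and 1177 in both and 2225, 298 and 2109 in neither colonies. Prox1, the factor that defines lymphatic endothelium, was 1482, 2482 and 268 in osteocalcin I, II and III. It was 1189, 866 and 1462 in both and 1614, 1178 and 480 in neither colonies. Its lowest value was thus in the colony with the highest Ccl21, and its highest in the colony with the next highest Ccl21. The 5 lymphoid stroma markers, which include Ccl19, summed to 5219 to 12339, 6012 to 12330 and 4176 to 9287. These sums overlapped between types; their part in the Ccl21 values was not tested.

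Ccl2, the monocyte chemoattractant that acts through Ccr2, was among the brightest transcripts of every colony. Its signal was 27151, 22921 and 8360 in osteocalcin I, II and III, 9592, 5614 and 9477 in both and 68402, 7651 and 17065 in neither colonies. Neither I was highest and both II lowest, at the 99.7 and 92.9 percentile, and all types overlapped. The log2 level was 14.1 ± 0.903 in osteocalcin, 13.01 ± 0.427 in both and 14.36 ± 1.58 in neither colonies (SD, n = 3 each). Both minus osteocalcin was -1.1 (limma SE 0.673) and both minus neither -1.36, a smaller distance than the SD of the neither type. Without neither I the latter difference was -0.504, and that between osteocalcin and neither turned from -0.26 to 0.591. With osteocalcin I at its deposited scale, both minus osteocalcin turned to 0.333, and without that colony it was -0.777. Without osteocalcin III, whose chip A array was closer to another colony on chip B, it was -1.61. At the deposited scale osteocalcin minus neither was -1.69.

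Ccl7, a neighbouring CC chemokine that draws monocytes through Ccr2 and related receptors, was read on the other chip. Its signal was 32759, 31041 and 12495 in osteocalcin I, II and III, 12497, 5267 and 15789 in both and 61439, 11071 and 18085 in neither colonies. Again neither I was highest and both II lowest, at the 99.9 and 93.7 percentile, with all types overlapping. The log2 level was 14.53 ± 0.768 in osteocalcin, 13.36 ± 0.802 in both and 14.52 ± 1.26 in neither colonies (SD, n = 3 each). Both minus osteocalcin was -1.17 (limma SE 0.617) and both minus neither -1.16, while osteocalcin and neither colonies were 0.01 apart. Without both II the first was -0.721 and without neither I the second was -0.464; with station as a block they were -3.27 and -2.56, on neither I alone for station 1. Osteocalcin minus neither ran from -0.509 without neither II to 0.71 with the block.

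Ccl2 and Ccl7 followed each other across colonies, although they were read on separate arrays. Over 9 colonies r was 0.965 and rho 0.983, and r was 0.929 without the 2 colonies farthest from the Ccl2 median. Leaving out each colony in turn gave r from 0.949 without neither I to 0.983 without both II, with 0.962 without osteocalcin I and 0.966 without osteocalcin III. Of 10077 genes with a kept probe set, Ccl7 was the closest to Ccl2. The points share the RNA of each colony, not the chip. For scale, 98 probe sets kept on both chips gave a median r of 0.649 between chips, with quartiles of 0.352 and 0.833. In RefSeq's gene table Ccl2 and Ccl7 lie on chromosome 10 with 0 protein-coding genes between them.

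The variation of both was mostly within types. Type made up 30.8% of the variance of Ccl2 and 32.7% of that of Ccl7, near the medians of 23.7% on chip A and 25.1% on chip B, while their SDs over 9 colonies, 1.12 and 1.02, were at the 97.4 and 92.6 percentile. Neither I, the colony with the highest Ccl2 and Ccl7, also had the highest summed macrophage and leukocyte markers (13871, 7 of 13 above the array median) and the highest blood endothelial markers (53358). Of the endothelial sum 46275 came from Esm1, an endothelial proteoglycan, while Pecam1 was 147 there. Osteocalcin II had the next highest endothelial sum, 24306, and both II, the colony lowest in Ccl2 and Ccl7, the third highest, 15263. Ptprc in neither I was 425 and its highest value, 726, was in osteocalcin II. The part of these cell types was not tested. Ccr2, the receptor of both ligands, did not pass the filter and had signals from 59.7 to 570.

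Cxcl1, which draws neutrophils through Cxcr2, lay between the 24.9 and 78.1 percentile of its arrays. Its signal was 1963, 617 and 491 in osteocalcin I, II and III, 1806, 1869 and 457 in both and 1341, 443 and 333 in neither colonies. Osteocalcin I, both I, both II and neither I were the 4 highest colonies, and the types overlapped. Both minus osteocalcin was 0.38 log2 units (limma SE 0.578), osteocalcin minus neither 0.39 and both minus neither 0.76. The first of these was 0.868 without osteocalcin I, 0.071 without osteocalcin III and 1.3 with signals as deposited. Osteocalcin minus neither turned to -0.107 without osteocalcin I and to -1.19 with station as a block, which also turned both minus neither to -0.29. Type made up 16.6% of the variance.

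Cxcl3, a further Cxcr2 ligand, had 5 probe sets that did not go together. On the probe set that passed the filter (1388032_a_at), the signal was 148, 304 and 134 in osteocalcin I, II and III, 495, 394 and 853 in both and 771, 1278 and 2106 in neither colonies. Osteocalcin colonies were lowest and overlapped neither other type, whereas both III, at 853, stood above neither I, at 771. The log2 level was 8.74 ± 0.298 in osteocalcin, 9.64 ± 0.407 in both and 10.58 ± 0.608 in neither colonies (SD, n = 3 each). Osteocalcin minus neither was -1.84 (limma SE 0.474), both minus osteocalcin 0.9 and both minus neither -0.94. Without osteocalcin I the first 2 of these were -1.77 and 0.827, and with no pseudocount -2.81 and 1.6. With station as a block osteocalcin minus neither shrank to -1.16 and both minus neither to -0.488. On chip A no station carried osteocalcin together with neither colonies, so their difference cannot be told apart from station. Type made up 80.3% of the variance of this probe set.

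The other 4 Cxcl3 probe sets were dim and did not pass the filter. Probe set 1388033_at gave 73.2, 262 and 281 in osteocalcin I, II and III, 269, 384 and 267 in both and 465, 612 and 701 in neither colonies. The neither type was thus above the other 2 types in signal. By array percentile, however, both II, at 33.6, stood above neither I, at 33.3. This probe set correlated with the kept one at r = 0.829 over 9 colonies. Probe set 1370633_at ran from 40.9 to 311 and had its highest value in neither III. Probe set 1370634_x_at, whose suffix marks probes shared with other sequences, ran from 73.3 to 1079, and 1393182_at on chip B from 57.4 to 806 with its highest value in neither I. Over the 10 pairs r ran from -0.176 to 0.829. Cxcl1 and Cxcl3 are related genes, with 1 protein-coding gene between them on chromosome 14, and probes that match more than 1 such transcript cannot separate them. Their receptor Cxcr2 did not pass the filter, at 165 to 805.

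Cxcl10, an interferon-induced ligand of Cxcr3 that draws activated T cells, varied about as much as a typical probe set. Its signal was 453, 1201 and 735 in osteocalcin I, II and III, 881, 1309 and 964 in both and 912, 978 and 2705 in neither colonies. Neither III stood above the rest and osteocalcin I below, and the types overlapped. Both minus osteocalcin was 0.37 (limma SE 0.436), osteocalcin minus neither -0.7 and both minus neither -0.33. Without neither III the latter 2 were -0.257 and 0.111, and without osteocalcin I the first 2 were 0.11 and -0.437. With signals as deposited the first 2 were 0.842 and -1.17. The SD over 9 colonies was 0.57, at the 53.1 percentile of kept chip A probe sets, and the highest colony had 5.97 times the signal of the lowest. Cxcr3 was kept and was lower in osteocalcin and in both colonies than in neither colonies, with no overlap (-0.7 and -0.93 log2 units, limma SE 0.428). Of all probe sets tested 12.2% and 14.6% did not overlap in these comparisons. Its signal was 948 in osteocalcin II, 975 in neither II and 1049 in neither I, where the array medians were 795, 817 and 896. The separation of osteocalcin from neither colonies thus cannot be told apart from array median or station. Cxcr3 was highest in neither III, at 2023, on the chip A array with the highest median. Neither III also had the highest sum of the 5 T cell markers, 6863, with 3 of them at their highest (Cd3e 1515, Cd3g 898 and Cd247 3452), but Lck at its lowest (475) and Cd2 at 523. The part of T cells was not tested.

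Cxcl12, the ligand of Cxcr4 and of the scavenging receptor Ackr3, had 3 probe sets. The kept one (1369633_at) gave 820, 770 and 1113 in osteocalcin I, II and III, 1330, 2424 and 860 in both and 503, 2516 and 827 in neither colonies. Neither II and both II were high, neither I was lowest, and the types overlapped. Both minus osteocalcin was 0.56 (limma SE 0.488), osteocalcin minus neither -0.2 and both minus neither 0.36. The first was 0.509 without osteocalcin I and 0.216 without both II, and without neither II the second turned to 0.346. With station as a block the second was -1.09 and the third turned to -0.239, and without neither I the third was -0.044. Type made up 14.4% of the variance. Probe set 1388583_at gave 105, 601 and 30.7 in osteocalcin I, II and III, 576, 1436 and 150 in both and 26, 1289 and 822 in neither colonies, again highest in both II and neither II. Probe set 1387655_at ran from 24.3 to 461 and was highest in osteocalcin II. Over the 3 pairs of Cxcl12 probe sets r ran from -0.18 to 0.729, so they did not give 1 pattern. Cxcr4 did not pass the filter and ran from 51.1 to 1416; Ackr3 was kept and ran from 346 to 2771.

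Cxcl12 ran against Ccl2 and Ccl7 on its kept probe set. The 2 colonies highest in Cxcl12, neither II and both II, were the lowest pair in Ccl2 and in Ccl7, and neither I, lowest in Cxcl12, was highest in the CC pair. Over 9 colonies r was -0.824 and rho -0.917 with Ccl2, and r was -0.87 and rho -0.95 with Ccl7. Without the 2 colonies farthest from the median of the CC chemokine r was -0.789 and -0.718. Leaving out each colony in turn gave r from -0.886 to -0.778 with Ccl2 and from -0.935 to -0.801 with Ccl7. On the dimmer probe set 1388583_at r was -0.529 and -0.621, and on 1387655_at it was 0.262 and 0.271. Ccl2 and Cxcl12 share arrays, and Ccl7 and Cxcl12 share the RNA of each colony. Of the 28 pairs among the 8 genes, these and Ccl2 with Ccl7 had the r farthest from 0, and were picked after their values were seen; Cxcl3 with Cxcl10 came next (r = 0.722, and 0.478 without the 2 farthest colonies). Ackr4 with Ccl21 was described as a receptor and its ligand.

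**Figure D3:**
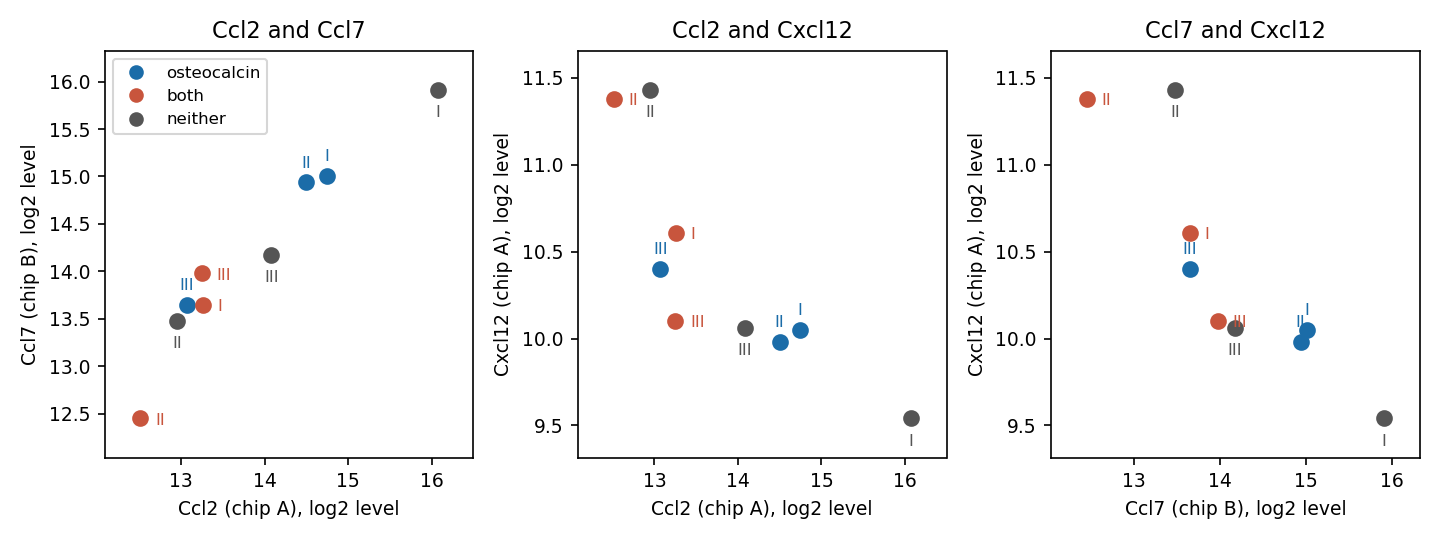
Log2 level of Ccl2 against Ccl7, Ccl2 against Cxcl12 and Ccl7 against Cxcl12 on their kept probe sets; each point is 1 colony with its number and is coloured by type, and both axes are log2(signal + pseudocount). Ccl2 and Ccl7 rise together (r = 0.965) and Cxcl12 runs the other way (r = -0.824 and -0.87), with colonies of all types mixed along each trend.

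**Figure D4:**
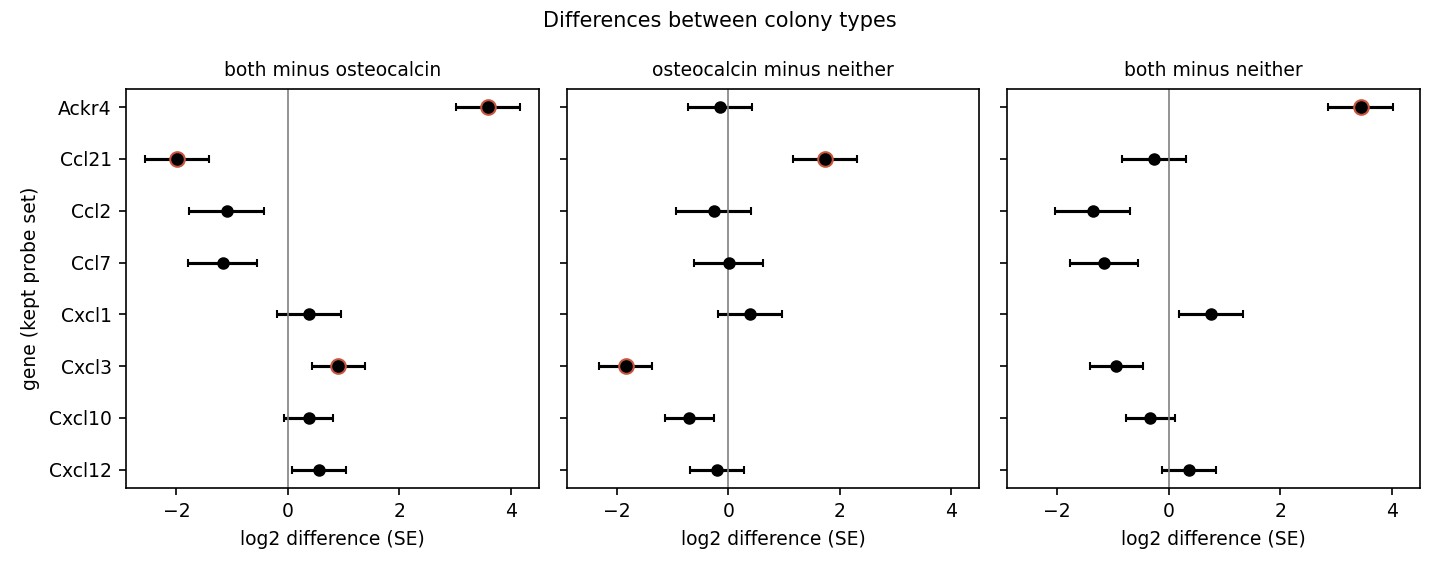
Difference between type means (horizontal axis, log2 units) for the kept probe set of each gene in the 3 comparisons; bars are limma's SE and points ringed in red are those whose 2 types did not overlap. Ackr4 lies at 3.59 and 3.44 in the comparisons of both colonies, Ccl21 at -1.99 and 1.73 in those of osteocalcin colonies, and 6 of 24 points are ringed.

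The 5 genes most like each member were taken by Pearson's r over 9 colonies, which share their RNA and in part their arrays, among 10070 other genes with a kept probe set. For Ackr4 these were Ccn5, a secreted growth regulator (r = 0.931), Idnk (0.928), Snx24, a sorting nexin (0.926), guanine deaminase Gda (0.917) and the interferon regulatory factor Irf2 (0.912). For Ccl21 they were the predicted solute carrier Slc35f4 (r = 0.962), the electron carrier Fdx1 (0.949), Sdf2l1 of the endoplasmic reticulum (0.943), the sialyltransferase St6galnac2 (0.939) and the membrane glycoprotein Cd200 (0.933). The signalling scaffold Card10 was nearest to both Ccl2 (r = 0.961) and Ccl7 (0.931) outside the members. Ccl2 was followed by the junction protein F11r (0.875), Ehd4 (0.874), Ripply3 (0.863) and Gclm (0.852), and Ccl7 by Ehd4 (0.916), Exosc1 (0.879), Pinx1 (0.869) and the heme oxygenase Hmox1 (0.837). With this many genes and 9 colonies, high values of r occur for every member.

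The remaining members had the following neighbours. For Cxcl1 they were Amotl2 (r = 0.965), Epc2 (0.958), Lrrc58 (0.956), the lysosomal sulfatase Ids (0.954) and catalase, Cat (0.951). For Cxcl3 they were Insyn1 (0.973), the apoptosome protein Apaf1 (0.96), the connexin Gja5 (0.944), LOC102554253 (0.936) and Fam13a (0.935). For Cxcl10 they were the kinase Csk (0.966), Ptpru (0.93), the mitotic activator Cdc20 (0.925), Gltp (0.923) and the calcium channel Itpr3 (0.923). For Cxcl12 they were the signal-transducing cytokine receptor Il6st (0.94), Dhtkd1 (0.934), the fatty acid desaturase Fads1 (0.934), the chemokine Ccl20 (0.928) and Zcchc24 (0.925).

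Other genes of the chemokine system were counted from lists, with 0 members called in any list and comparison. Of 28 other chemokine ligands 25 were on the arrays and 12 passed the filter; between both and osteocalcin colonies 4 were higher and 8 lower, with a median of -0.2. Those with the widest differences were Ccl20, the ligand of Ccr6 (+1.45, limma SE 1.1), Cxcl16 (+1.08), Cxcl11 (-0.96) and Ccl6 (-0.85), all with overlapping types. Ccl20 ran from 145 in neither I to 9882 in both II. Mif, a cytokine that also binds chemokine receptors, was 1788, 2627 and 2244 in osteocalcin I, II and III, 1881, 1388 and 3138 in both and 230, 985 and 360 in neither colonies. Neither colonies were thus below the other 2 types, by 1.8 and 1.7 log2 units (limma SE 0.418). Mif was read on chip A, where the difference from osteocalcin colonies cannot be told apart from station. Ppbp, a platelet chemokine, was lower in both than in neither colonies (-1.19) and than in osteocalcin colonies (-0.62), with no overlap in either comparison (background 14.6% and 10.1%). It was 359 in both III and 396 in neither II, where the chip A array medians were 719 and 817. Its separation of both from neither colonies thus cannot be told apart from array median.

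Of 24 chemokine receptors 17 were on the arrays and 7 passed the filter. Between both and osteocalcin colonies 4 were higher and 3 lower (median 0.45). The 2 other scavenging receptors that were kept, Ackr3 (+0.8, limma SE 0.546) and Ackr2, which takes up inflammatory CC chemokines (+0.72), were higher in both than in osteocalcin colonies with no overlap, although Ackr2 reached 1413 and Ackr3 2771 in neither III. Ackr2 was 837, 997 and 1423 in both I, II and III, 561, 512 and 590 in osteocalcin and 1244, 185 and 1413 in neither colonies. Between osteocalcin and neither colonies 1 receptor was higher and 6 lower (median -0.57). Cxcr1 was lower in both than in neither colonies with no overlap (-1 log2 unit, background 14.6%). It was 852 in both III and 1015 in neither I, where the chip A array medians were 719 and 896. That separation thus cannot be told apart from array median.

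Genes that act before and after chemokines were counted likewise. Of 27 NF-kB and cytokine signalling genes that passed the filter, 17 were higher and 10 lower in both than in osteocalcin colonies (median 0.1), the widest being the lipoprotein sensor Tlr2 (+1.37, no overlap), Icam1 (+1.31) and Nfkbiz (+1.08). Of 16 STAT and IRF genes 9 were higher and 7 lower (median 0.05). The widest were Irf2 (+1.07), Irf1 (+0.79), Jak1 (+0.78) and Irf7 (+0.71), and for Irf1 the types overlapped. In this list 4 did not overlap, all higher in both colonies: Irf2, Jak1, Irf7 and Ifngr2 (+0.35), the last named after its value was seen. Irf2, read on chip B like Ackr4, was 1434, 2018 and 1496 in both I, II and III and 425 to 1036 in osteocalcin colonies. Of 10 proteases that can trim chemokines 7 were higher and 3 lower (median 0.33). The widest were Cpd (+1.14, limma SE 0.831), the matrix metalloproteases Mmp2 (+0.94) and Mmp14 (+0.8), and cathepsin K, Ctsk (+0.73). For Cpd and Mmp14 the types overlapped. Mmp2, Ctsk and cathepsin B, Ctsb (+0.14, named after its value was seen), did not overlap. Ctsk was 19892, 26226 and 12856 in both I, II and III, 9706, 12719 and 11651 in osteocalcin and 5141, 5624 and 3624 in neither colonies, so the 3 types were in that order with no overlap. Ctsk was read on chip A, where the step from osteocalcin to neither colonies cannot be told apart from station. Of 11 stromal niche genes 7 were higher and 4 lower (median 0.13), with Pdgfra, a receptor of stromal precursors, at +2.4 (limma SE 0.998): it was 5194 in both I, 6105 in both II and 3327 in neither II, but 279 in both III. The share of each list that did not overlap in this comparison was 8.33%, 28.6%, 7.41%, 25%, 30% and 0% in the order given, against 10.1% of all probe sets.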

How the data were processed

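The authors deposited 1 linear MAS5 signal intensity for each probe set, per the submitters' processing notes, which give no MAS5 version. Detection calls were not used. Each of the 18 arrays was rescaled to a 2%-trimmed mean of 1500. Without the control probe sets (57 on either chip), those brighter than the array median on 3 or more of 9 arrays passed the filter (9425 on chip A, 9887 on chip B). Signals became log2(signal + pseudocount), the pseudocount being the median over arrays of each array's 25th percentile. Separate fits of the chips used limma 3.58.1 under R 4.3.3 with 3 group means and an empirical Bayes intensity trend, and gave two-sided p-values that were adjusted over both chips by the Benjamini-Hochberg method. The steps were tested on simulated data. Names came from the platform annotation, and promoters and gene order from RefSeq (GRCr8). Figures used Python 3.11.15 and matplotlib 3.10.9.

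All member probe sets are named. Of other genes, the text names the 5 with the highest Pearson correlation with each member's kept probe set, and up to 4 per gene list and comparison with the widest difference; Ccl19 and the receptors of the members were added for their roles and cell type markers as a check. The members and lists were chosen with earlier results of these data known, so the lists were not tested as sets. Alternatives changed the scale, normalization, pseudocount, filter, array weights, samples in the fit, station, colony number and trend, and left out each colony in turn.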

Additional observations from a re-analysis of the deposited data

How the results depend on the processing

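Of both against osteocalcin, limma called 0 probe sets, but 1 with signals as deposited, 2 with the pseudocount doubled, 87 with array weights, 1 with only the 2 types in the fit and 2 with the colony number as a replicate block; without each colony in turn it called 0 to 1 (1 without osteocalcin II and without neither III). Of both against neither it called 10 with array weights, 1 with only the 2 types in the fit and 0 to 3 without each colony in turn (1 without osteocalcin II, 1 without neither I, 3 without neither II). Of osteocalcin against neither it called 0 in every alternative run. The cause was not tested.

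The 24 member differences had 486 alternative values, of which 460 kept their sign and 468 moved by less than 1 SD; 14 of the 24 kept their sign throughout. Ackr4 ran from 2.51 (station block) to 4.46 (no pseudocount) for both minus osteocalcin and from 2.72 to 4.02 for both minus neither. Ccl21 ran from -3.08 to -1.55 for both minus osteocalcin. The filter for signals above the median on all 9 arrays left the members Ccl2 and Ccl7 alone. Colony numbers were not used to pair the colonies in the main fit, and the values do not settle whether they pair them. After centring by type, same-numbered colonies of different types correlated at r between -0.15 and 0.325 (chip A) or between -0.087 and 0.189 (chip B). Different-numbered colonies gave r between -0.385 and 0.274 (chip A) or between -0.239 and 0.166 (chip B). On chip A r was over 0.1 in 6 of 9 same-numbered and 5 of 18 different-numbered pairs. On chip B these were 3 of 9 and 3 of 18. On each chip 5 of 9 colonies were closest to their own number. Dim probe sets, such as those of Cxcl3 and Cxcl12 that did not pass the filter, lie near the pseudocount, where differences are compressed.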
